A study of Homo sapiens with 6 samples.

Results

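The TSNAX and DISC1 read-through locus lies on the plus strand of human chromosome 1 and carries 3 gene names: TSNAX, DISC1 and TSNAX-DISC1, the name given to transcripts that run from the former gene into the latter. The members are the transcript models of 1 merged assembly whose gene name is one of these, which gave 3 of 25211 gene names and 55 of 55083 models. The locus was chosen from these data for its count of joined models, which was 23, so that count and every comparison of it with other loci is a description with no test. A joined model is one that the assembler marked as sharing splice junctions with a RefSeq transcript without having the whole chain of introns of any of them. The other 32 models matched a RefSeq transcript exactly and are called reference transcripts. Across the file 49753 of the 55083 models were such matches. The file gives no read support for any model, so the presence of a reference transcript in it does not show that the cells expressed that transcript.

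RNA came from 6 libraries of EndoC-βH1, an established human pancreatic beta cell line, in which all cells carried a lentiviral construct for a doxycycline-inducible short hairpin RNA aimed at the promoter of INS, the insulin gene. In 3 libraries the hairpin was induced by 1 mg/mL doxycycline for 7 days, and the 3 negative control libraries received no doxycycline. No library had doxycycline without the hairpin construct. The assembly pools the series: it gives exon positions for each model and no level in any library, so no comparison of the induced and control groups could be made, depth is unknown, and no value below carries a replicate error. The file does not say which of the 6 libraries, if any, supported a given model.

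TSNAX encodes translin-associated factor X, the partner of translin in C3PO, a nuclease that helps clear the passenger strand of a small RNA duplex during RNA silencing. DISC1 encodes a scaffold protein that binds centrosomal, cytoskeletal and signalling proteins, and it was found at the breakpoint of a chromosomal translocation that ran with psychiatric illness in a Scottish family. In read-through transcription, RNA polymerase passes the 3′ end of an upstream gene and continues into the next gene on the same strand, and splicing then joins exons of both. A stop codon that lies well upstream of the last exon junction usually marks a transcript for nonsense-mediated decay, a pathway that removes mRNAs with early stops.

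In genome build hg19, TSNAX spanned chr1:231664399-231702269, with 1 reference transcript of 6 exons and 2649 spliced bases. DISC1 spanned chr1:231762561-232177019, with 23 reference transcripts of 3 to 14 exons and 1553 to 7156 spliced bases. TSNAX-DISC1 spanned both genes, 512621 bases in all, with 8 reference transcripts of 8 to 16 exons and 2569 to 7673 spliced bases. The end of TSNAX and the start of DISC1 were 60291 bases apart. All 23 joined models carried the name TSNAX-DISC1, against 0 named TSNAX and 0 named DISC1. The assembler placed all 55 models in 1 locus, with no other gene name.

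The 55 models used 34 distinct exons, which fell into 27 groups of overlapping exons. Below, T1 to T6 are the exons of TSNAX, D1 to D19 those of DISC1, and R1 and R2 are exons of read-through transcripts alone. R1, at chr1:231752390-231752652, had 263 bases, and R2, at chr1:231753699-231753805, had 107 bases. Both lie between the genes. Where an exon occurs with different 3′ ends, its forms are called short, middle and long, and a long form is always the last exon of its transcript.

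The junctions that set read-through apart are shown here as the last 15 bases of the upstream exon in lower case and the first 15 bases of the downstream exon in capitals, read 5′ to 3′ on the plus strand of GRCh37. The same D2 acceptor follows exons of either gene, which is where a model passes from TSNAX into DISC1.
D1 to D2, in DISC1 transcripts: tgagccaccgcgcagGCAGCCGGGATTGCT
T5 to D2, in read-through: aaagaaaataaaactGCAGCCGGGATTGCT
R1 to D2, in read-through: actcagaaatatttgGCAGCCGGGATTGCT
R2 to D2, in read-through: cgagatgggaaaaagGCAGCCGGGATTGCT
T5 to T6, in TSNAX: aaagaaaataaaactCCCTCCTCTGATGCA
T5 to R1, in read-through: aaagaaaataaaactAAGTTTACAGGCAAG
T4 to R1, in read-through: gagccattactacagAAGTTTACAGGCAAG
R1 to R2, in read-through: actcagaaatatttgCCTTACAGAGACCTC
T2 to T3, in TSNAX and most read-through references: tgttggcctttaaatCATTTCAGCAGGAAC
T2 to T5, in most joined models: tgttggcctttaaatGACTACAGGAATATG

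**Figure D1:**
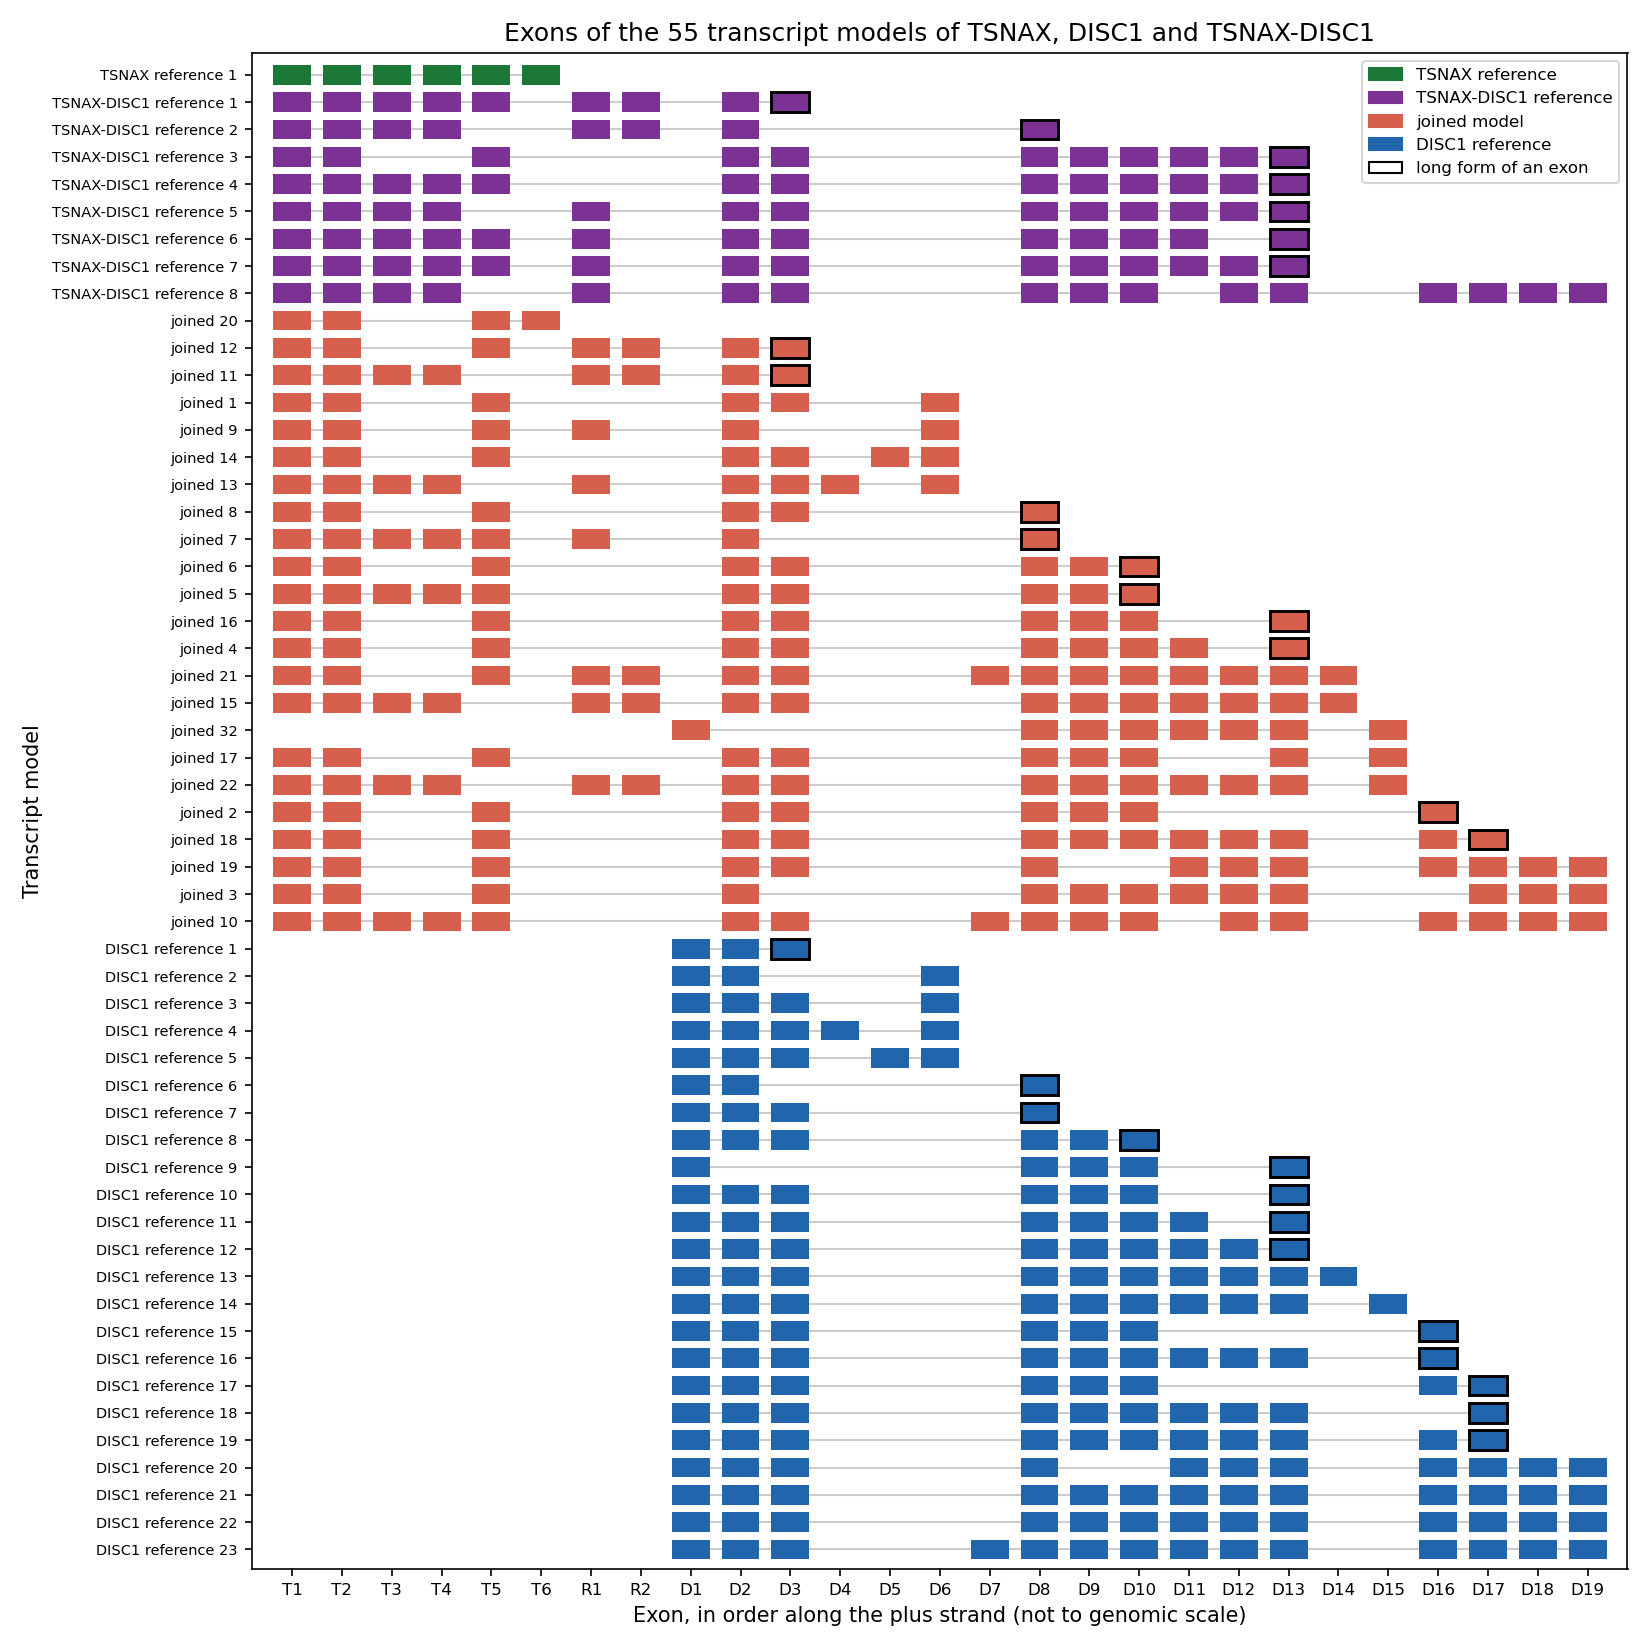
Each row is 1 of the 55 transcript models and each column 1 exon group in order along the plus strand (not to genomic scale); filled boxes are exons present, coloured by gene name and kind, with a black outline for the long form of an exon. Joined models 20 and 32 are the only joined rows that keep to the exons of 1 gene, and the other 21 run from T1 into D2.

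Of the 23 joined models, 21 held exons of both TSNAX and DISC1. The assembler had numbered them 1 to 22 and 32, and those numbers are used here. Joined model 20 ran T1, T2, T5, T6 and held TSNAX exons alone, in 2403 spliced bases. Joined model 32 ran D1, D8, D9, D10, D11, D12, D13, D15 and held DISC1 exons alone, in 1168 spliced bases. Both carried the read-through name all the same. Joined model 20 shared 2 of its 3 introns with the TSNAX transcript, also 2 with the read-through reference most like it, and 1 with the read-through transcript named as its nearest reference. Joined model 32 shared 6 of its 7 introns with a DISC1 transcript, 5 with the read-through reference most like it and 3 with that same nearest reference. All 23 joined models had been given 1 same nearest reference, and for 21 of them another reference transcript shared more introns. A count by gene name places joined models 20 and 32 under TSNAX-DISC1.

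The groups of transcripts that the assembler took to share a start site divided the locus differently from the gene names. A first group of 31 models began at T1 and held the TSNAX transcript, the 8 read-through references and 22 joined models. A second group of 24 models began at D1, 98162 bases downstream, and held the 23 DISC1 references and joined model 32. Each group had 1 first-exon start, and no model began at any other position. The assembler's protein tag was present on TSNAX and DISC1 transcripts and on 0 models named TSNAX-DISC1. The 23 DISC1 references carried 22 protein tags. A pair of transcripts shared 1 tag, and their longest reading frames were identical, at 559 amino acids.

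The joined models brought no new splice site, exon or end. All 23 were made of introns present in reference transcripts, all their exons were reference exons, and all their outer ends were ends of reference transcripts. Of the 43 distinct introns at the locus, which ran from 428 to 190267 bases, 42 began with GT and ended with AG. The remaining intron, from D18 to D19, began with AT and ended with AC, the borders of a minor class of introns, and it was in 8 models. Joined models used 42 of the 43 introns. The intron in no joined model was D1 to D2, of 66891 bases, which is the first intron of 22 of the 23 DISC1 references. With introns of the 8 read-through references alone, 8 of the 23 joined models could be built. The other joined models needed introns of TSNAX or DISC1 transcripts.

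In the TSNAX part, most joined models skipped T3 and T4. No model held T3 without T4 or T4 without T3. The junction from T2 to T5 was in 15 of 23 joined models, in 1 of the 8 read-through references and not in the TSNAX reference. T3 and T4 were present in 7 joined models and in 7 read-through references. These are counts of models in 1 assembly and say nothing of how many RNA molecules had each form.

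Between the genes, models left TSNAX by several routes. T5 was joined directly to D2 across 132570 bases in 13 joined models and 2 read-through references. R1 was in 8 joined models and 6 references, and R2 in 5 joined models and 2 references. R2 occurred only after R1. T5 was left out in 4 joined models and 3 references, which passed from T4 to R1. T6, the last exon of TSNAX with its stop codon, was in no model with a DISC1 exon, and D1, the first exon of DISC1, was in no model with a TSNAX exon. Thus every read-through model skipped both the last exon of the upstream gene and the first exon of the downstream gene. LINC00582, a non-coding gene on the minus strand, lies within the intron from T5 to R1, and it shares no exonic base with these models.

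Each read-through model can be read as a 5′ part, the exons before D2, followed by a 3′ part, the exons from D2 on. The commonest 5′ part was T1, T2, T5, in 11 joined models and 1 reference. T1, T2, T3, T4, R1, R2 followed, in 3 joined models and 1 reference. T1, T2, T3, T4, T5 was in 2 joined models and 1 reference. T1, T2, T3, T4, R1 and T1, T2, T3, T4, T5, R1 were each in 1 joined model and 2 references. The full series T1, T2, T3, T4, T5, R1, R2 was in 1 reference and 0 joined models. A pair of 5′ parts was in no reference: T1, T2, T5, R1, R2 in 2 joined models and T1, T2, T5, R1 in 1. Of the 21 joined read-through models, 18 had the 5′ part of a reference.

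The 3′ parts came mainly from DISC1. Of the 21, 17 had a 3′ part identical to that of a DISC1 reference, and 15 had both such a 3′ part and a reference 5′ part. A further 4, joined models 3, 10, 17 and 21, had a 3′ part of neither a DISC1 nor a read-through reference. The 21 models had 19 distinct 3′ parts, against 5 among the 8 read-through references. Of the 22 DISC1 3′ parts that contain D2, 15 were in a joined model, 1 more was in a read-through reference alone, and 6 were in no read-through model. Those 6 include the 3′ parts of the DISC1 transcripts with the longest frames: 886 amino acids, 854 amino acids (the L form) and 832 amino acids (the Lv form, whose D17 is 66 bases shorter). The 6 reference 5′ parts and 22 DISC1 3′ parts allow 132 pairs, of which 7 were in read-through references and 15 in joined models. Only 2 DISC1 3′ parts were joined more than once.

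**Figure D2:**
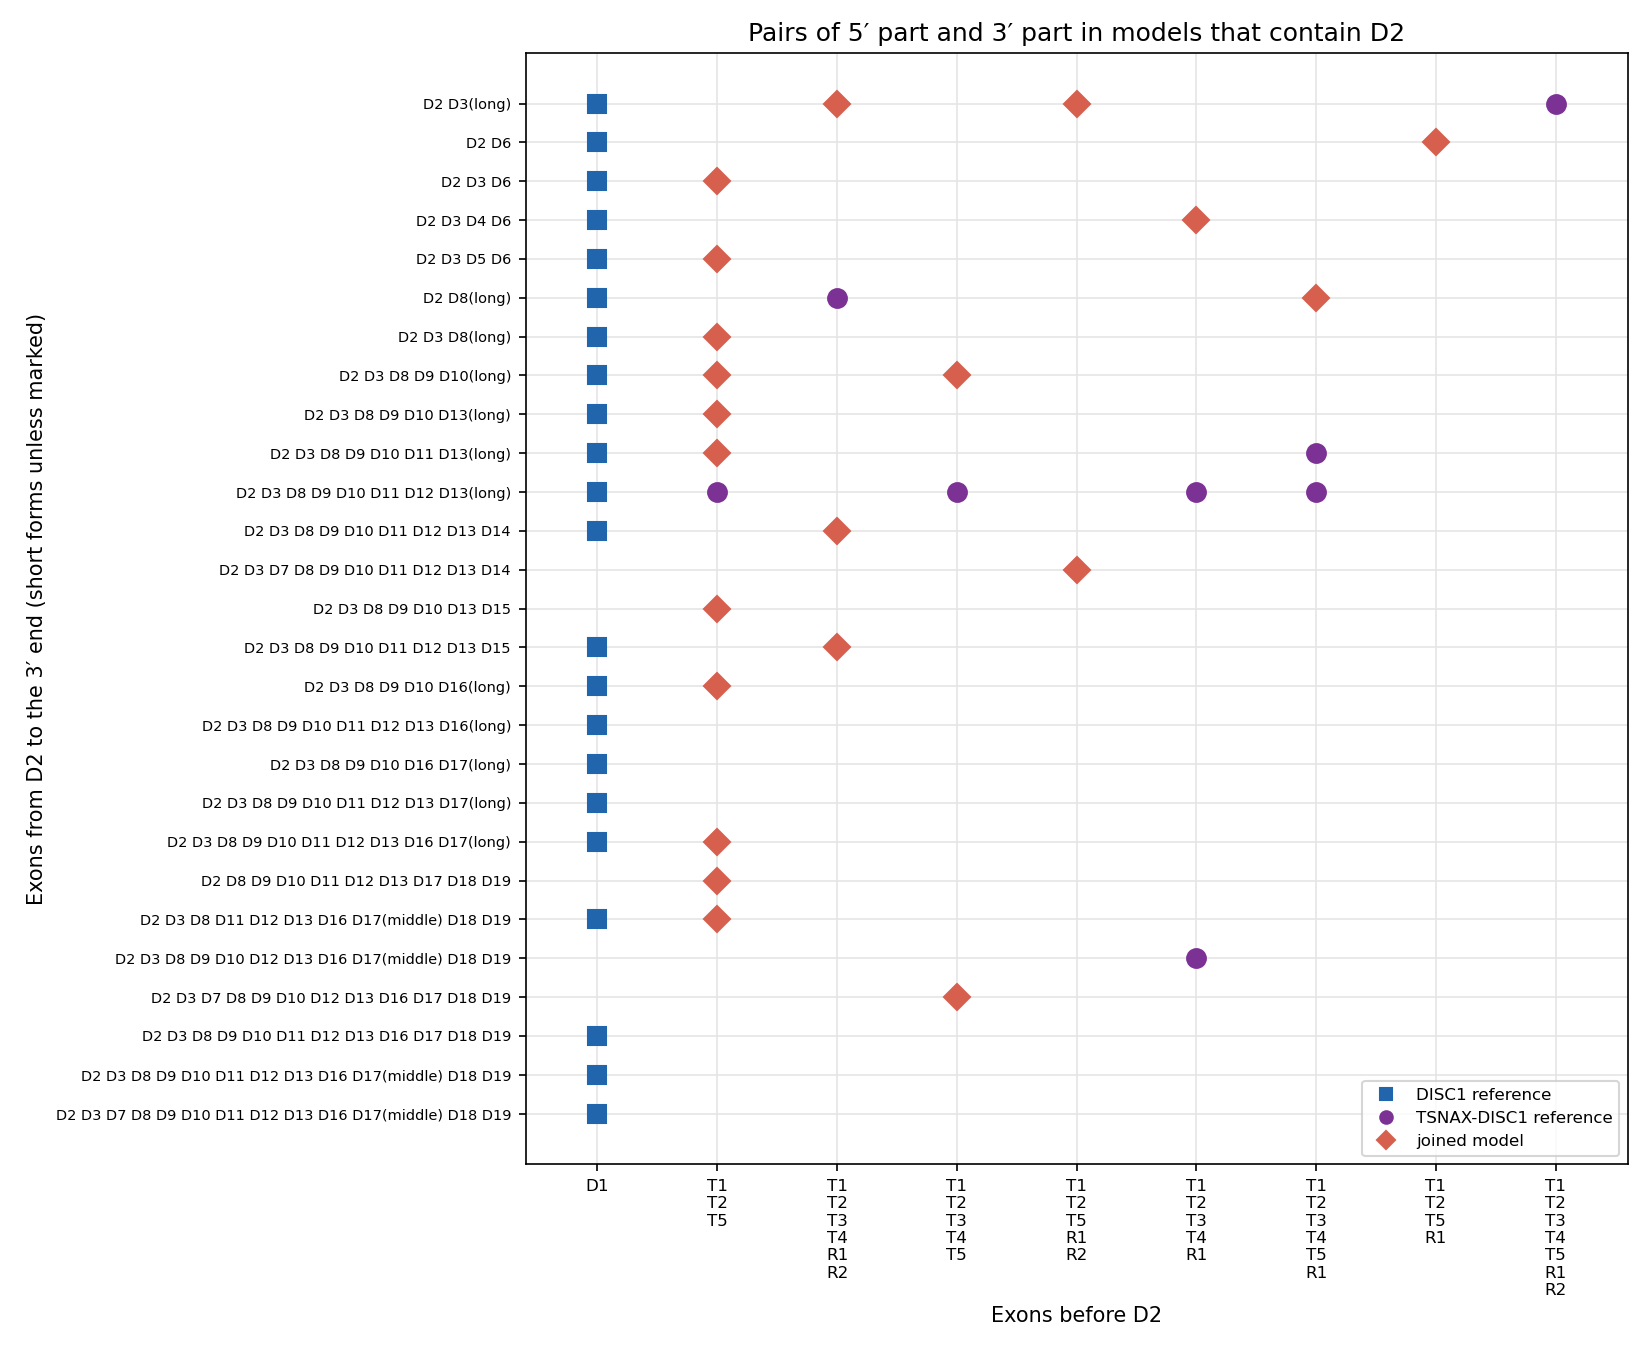
Columns give the exons before D2, rows the exons from D2 to the 3′ end, and each symbol marks the models with that pair: squares for DISC1 references, circles for TSNAX-DISC1 references and diamonds for joined models. The column T1, T2, T5 holds 11 joined models in as many rows, and 15 of the diamonds pair a reference 5′ part with a DISC1 3′ part.

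DISC1 has many alternative 3′ ends, and the joined models reached all of them. The locus had 11 last exons, 10 of them last exons of DISC1 references, and each was the end of at least 1 joined model. The read-through references used 4 of the 10. The other 6 ended 13 joined models and 0 read-through references. Those 13 include joined model 32, which holds DISC1 exons alone and ends in D15. D6, at chr1:231858285-231859820, ended 4 joined models and 4 DISC1 references, among them the 369-amino-acid Es form. D15, at chr1:232002269-232002452, ended 3 joined models and the DISC1 reference of 678 amino acids, the S form. The long form of D10 and the exon D14 each ended 2 joined models and 1 DISC1 reference. The long form of D16 ended 1 joined model and 2 DISC1 references, and the long form of D17 1 joined model and 3 DISC1 references.

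The other 4 DISC1 ends were also used by read-through references. The long form of D13, at chr1:231954075-231954990, ended 5 of the 8 read-through references, 4 DISC1 references and 2 joined models. D19, the distal end of the L form, at chr1:232172438-232177019, ended 3 joined models, 4 DISC1 references and 1 read-through reference. The long forms of D3 and D8 each ended 2 joined models and 1 read-through reference. DISC2, a non-coding gene on the minus strand at chr1:231950372-231954263, overlaps all 189 bases of the short form of D13. The library kit does not mark the strand of the RNA, so reads of DISC2 and of that exon cannot be told apart by strand.

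Alternative exons inside DISC1 were carried over as well. D4 and D5 lie 22 bases apart, and no model held both. D4 was in 1 DISC1 reference and joined model 13, and D5 in 1 DISC1 reference and joined model 14. D7, of 96 bases, was in 1 DISC1 reference, that of 886 amino acids, and in joined models 10 and 21. Joined model 19 skipped D9 and the short form of D10 together, 366 bases and a multiple of 3, as 1 DISC1 reference did.

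Next, the reading frames were computed on the spliced GRCh37 sequence. The TSNAX transcript opened at its start codon in T1, at position 231664557, and gave 290 amino acids. The 23 DISC1 references gave longest frames of 201 to 886 amino acids, with a median of 559. All 23 opened in D1, at position 231762614, and none had an early stop, meaning a stop codon more than 50 bases before the last junction.

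Translation from the TSNAX start codon met an early stop in all 21 joined read-through models and all 8 read-through references. The stop lay 1176 to 2506 bases before the last junction in the joined models and 1284 to 2516 in the references. There were 4 such stops. They are printed here with the stop codon in capitals, after the normal stop of TSNAX in T6. Whether T3 and T4 are kept, and if so the route out of TSNAX, decides which one is met.
TSNAX, stop in T6: gagggcatttctTAGaatctaacgttactc
T2 joined to T5, stop across the junction: ttggcctttaaaTGActacaggaatatgtg
T4 joined to R1, stop in R1: tgggatcaaggcTGAcagaagctccatctg
T5 joined to R1, stop in R1: agaagctccatcTGAagacttttatactat
T5 joined to D2, stop in D2: ggccgggctacaTGAgaagctcgacagggc

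The stop at the T2 to T5 junction left 40 amino acids and was met in 14 joined read-through models and 1 reference. T3 and T4 together have 246 bases, a multiple of 3, so skipping them keeps the frame of T5. The stop arises at the junction itself, where the T is the last base of T2 and GA the first bases of T5. Joined model 20, which ends in T6 as TSNAX does, met the same stop, 126 bases before its last junction. Its longest frame was 146 amino acids, in the TSNAX frame, from an ATG in T5 at position 231696939.

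Models that kept T3 and T4 met their stop later. From T4 into R1 the frame had 138 amino acids, in 4 joined models and 3 references. From T5 into R1 it had 186 amino acids, in 1 joined model and 3 references. From T5 into D2 it had 188 amino acids, in 2 joined models and 1 reference, and that stop began 1 base after the first base of an in-frame DISC1 ATG in D2. The ATG is at position 231829640 and the stop begins at position 231829641, so that 2 bases belong to both codons.

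The longest frame of the read-through models was mainly a DISC1 frame that lacked at least the residues encoded by D1. It had 330 to 758 amino acids in the 21 joined models, with a median of 502, and 311 to 651 in the 8 references, with a median of 592.5. At least 94.9% of its bases in the joined models, and at least 97.3% in the references, were in the frame of the DISC1 protein. The start codons of these frames are shown in capitals, because they set how much of DISC1 is left.
DISC1, in D1: gcggggcgcATGccaggc
read-through, in D2: ccgggctacATGagaagc
read-through, in R1: attcccactATGtgtctg

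The frame opened in D2 in 18 joined models and 4 references. It opened in R1 in 3 joined models and 4 references, which were the models that joined R1 directly to D2. Where R2 intervened, the frame opened in D2. A DISC1 reference with the same 3′ part could be set beside 24 read-through models, 17 of them joined. The frame was 45 amino acids shorter than that of the DISC1 reference in the 18 of these that opened in D2. It was 11 amino acids shorter in the 6 that opened in R1, since the R1 start adds 34 amino acids before the D2 start codon, encoded by the end of R1 and the first bases of D2. Joined model 22, with the 3′ part of the 678-amino-acid S form, thus had 633 amino acids. Joined model 9, with the 3′ part of the 369-amino-acid Es form, opened in R1 and had 358. The longest frame of any joined model was 758 amino acids, in joined model 18, against 803 in the DISC1 reference with its 3′ part.

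**Figure D3:**
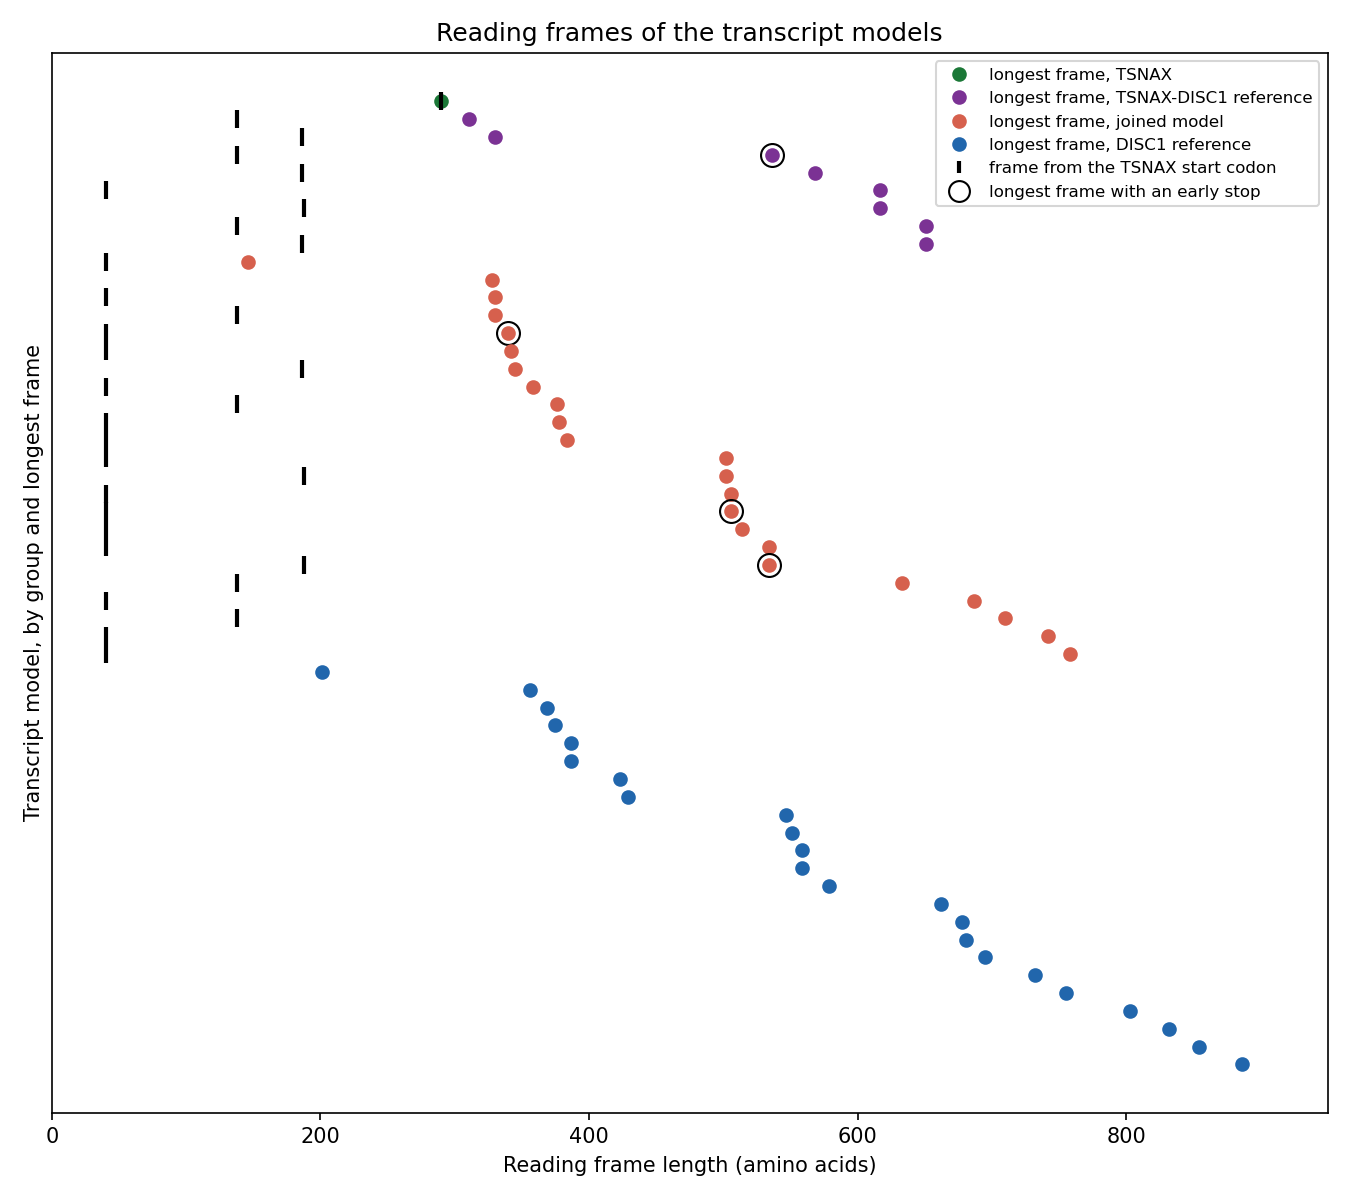
Each row is 1 transcript model, grouped by gene name and kind, with reading frame length in amino acids on the horizontal axis; points are the longest frame, vertical marks the frame from the TSNAX start codon, and rings mark longest frames with an early stop. The vertical marks of the read-through models stand at 40, 138, 186 or 188 amino acids, below the longest frame of each.

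In 3 joined models the longest frame itself had an early stop. Joined model 10 left out D11, of 55 bases, and its frame of 534 amino acids stopped in D12, 660 bases before the last junction. The read-through reference that ends in D19 also left out D11, and its frame of 536 amino acids stopped 726 bases before the last junction. Joined model 17 left out D11 and D12, and its frame of 506 amino acids stopped in the short form of D13, 167 bases before the last junction. Joined model 3 joined D2 to D8 without D3, of 70 bases in its short form. It also joined D13 to D17 without D16, of 61 bases in its short form. Its longest frame, of 340 amino acids, opened at a later ATG of D2, at position 231830500, and stopped in D17, 210 bases before the last junction. Of the 1023 bases of that frame, 971 were in the DISC1 frame. The 1 DISC1 reference that joins D13 to D17 holds D3, and its frame also stopped in D17, there the last exon.

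The 3 early-stop models are among the 4 whose 3′ part no reference had. The fourth, joined model 21, held D7, and its frame of 742 amino acids stopped in its last exon, D14. Joined model 32 kept the DISC1 start in D1 and joined D1 to D8, as 1 DISC1 reference of 201 amino acids does. Its frame ran on to D15 and had 328 amino acids.

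Since every intron of the joined models is annotated, what each joined model adds is a combination. For each, the shortest run of neighbouring introns that no single reference transcript contains was found, and the spliced bases between its outermost junctions were counted. The chains of 3 joined models, 5, 6 and 8, lie whole inside the chain of 1 read-through reference and differ from it by ending at a nearer last exon. For the other 20 the stretch was 128 to 1914 bases, with a median of 1050. It exceeded 500 bases in 14 models. It was at most 200 bases in 6: joined models 9, 12, 20 and 21 at 128 bases (T5 between T2 and either R1 or T6), joined model 3 at 151 bases (D8 between D2 and D9) and joined model 17 at 189 bases (D13 between D10 and D15). In 7 models the stretch comprised only 2 introns.

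The longest stretches crossed D2, which has 980 bases. Joined model 7 needed 980 bases, from R1 across D2 to the long form of D8. Joined models 1, 13, 14, 15 and 22 needed 1050 bases, across D2 and D3. Joined model 18 needed 1914 bases, from T5 across 9 introns to D16. Sources used here give neither fragment lengths nor assembly settings, and whether single fragments spanned these stretches was not tested.

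**Figure D4:**
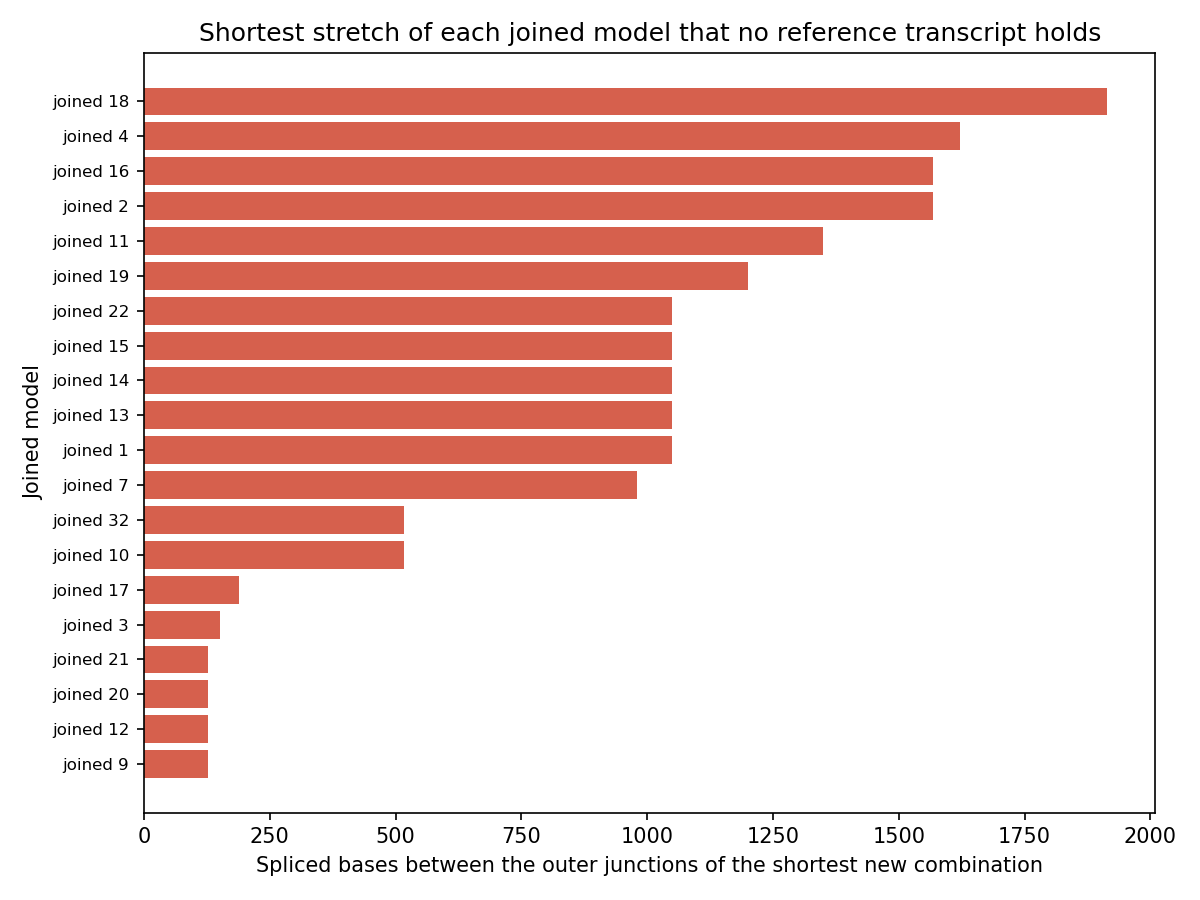
Bars give, for the 20 joined models not contained in a single reference chain, the spliced bases between the outer junctions of the shortest combination of introns that no reference transcript holds. Bars run from 128 bases in joined models 9, 12, 20 and 21 to 1914 bases in joined model 18, and 14 of the 20 exceed 500 bases.

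Counted as runs of introns that each come from 1 reference transcript, 3 joined models took 1 run, 15 took 2 runs, 2 took 3 runs and 3 took 4 runs. The references allow 180 other chains by passing once from one transcript to another at an identical exon, and 18 of the 23 joined chains are among them, which is 10% of the possible ones. With up to 2 passes 443 chains are possible, and 19 of the joined chains are among them, or 4.29%.

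The same chains were looked up in GENCODE release 44 on GRCh37. Of the 32 reference chains, 17 were present there with every intron identical: the TSNAX chain, 10 of 23 DISC1 chains and 6 of 8 read-through chains. None of the 23 joined chains was present, although 3 lie within a longer annotated chain. Of the 43 introns 35 were present, and 6 joined models used at least 1 of the 8 that were not. GENCODE listed 8 TSNAX-DISC1 transcripts, all of them typed as subject to nonsense-mediated decay and all with a coding region that begins at the TSNAX start codon. The stops of those coding regions were not compared with the stops described above.

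The joined models also changed which sequence belongs to which name. With reference transcripts alone, TSNAX had 1996 exonic bases (those of T6) and 1 intron of no other name, and DISC1 had 4592 exonic bases and 17 introns. With the joined models added, TSNAX had 0 bases and 0 introns of its own. DISC1 had 0 bases and 1 intron of its own, D1 to D2. The sharing of T6 and of the intron from T5 to T6 rests on joined model 20 alone, which holds only TSNAX exons. That of D1 rests on joined model 32 alone, which holds only DISC1 exons. TSNAX-DISC1 had 370 bases of its own, those of R1 and R2, and 8 introns: T2 to T5, T4 to R1, T5 to R1, T5 to D2, R1 to R2, R1 to D2, R2 to D2 and D10 to D12. A read inside any other exon of the locus is shared between at least 2 of the 3 names, so that levels by gene name from this assembly would depend on how such reads are divided.

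Across the file 5237 models were joined, and 2677 of 21516 gene names with a multi-exon reference transcript, or 12.4%, had at least 1. Among the 3 members 1 name had any. TSNAX-DISC1 ranked 4 by joined models among all gene names and 1 on chromosomes 1 to 22, X and Y. The locus also has many references: 32, the sixth most on those chromosomes, and more references allow more combinations. Per reference transcript it had 0.719 joined models, against a median of 0.167 over the 1858 loci with at least 5 references, and by this measure it ranked 106. The 8 other loci on those chromosomes with 24 to 40 references had 0 to 17 joined models, with a median of 4.5.

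**Figure D5:**
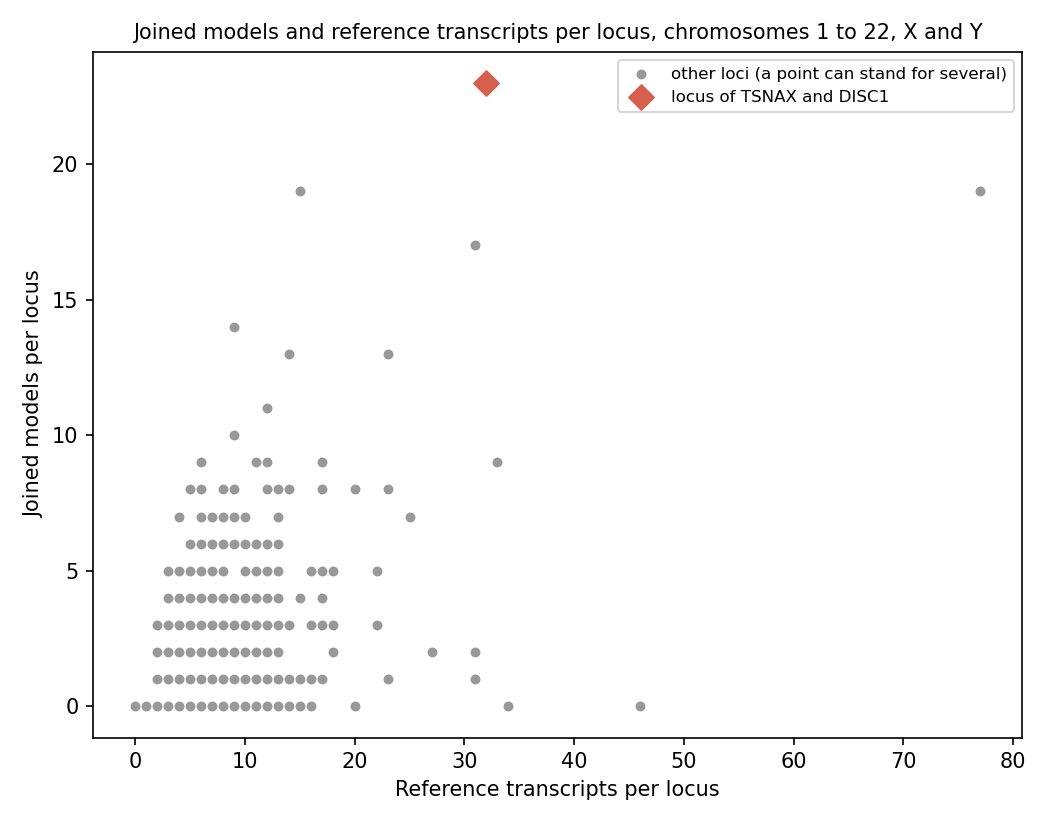
Each grey point stands for 1 or more loci on chromosomes 1 to 22, X and Y, with reference transcripts on the horizontal and joined models on the vertical axis; the diamond is the locus of TSNAX and DISC1. It stands at 32 references and 23 joined models, above the other loci. The 8 other loci with 24 to 40 references had 0 to 17 joined models.

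Other read-through names give a closer comparison. On chromosomes 1 to 22, X and Y there were 120 names made by joining a pair of other gene names, and of these 61 had a joined model. C1QTNF3-AMACR had 6 joined models with 6 references at its locus, or 1 per reference. STX16-NPEPL1 had 6 with 12 references, or 0.5 per reference, and NT5C1B-RDH14 had 5 with 8, or 0.625 per reference. TSNAX-DISC1 thus had the most joined models of these names in number, while C1QTNF3-AMACR had more per reference. The locus of ARHGAP19-SLIT1 also had more, at 0.8 per reference, though 0 of its 4 joined models carried that name.

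Neighbouring and partner genes were counted in the same way. Of 15 listed neighbours on the same chromosome band, 14 were in the file, 11 had a multi-exon reference transcript and 0 had a joined model. Of those 14 all but SPRTN had 1 reference transcript, and on chromosomes 1 to 22, X and Y the 15456 loci with 1 reference transcript had 0 joined models, so this count is no result about the neighbours. The 24 listed partners included translin and silencing factors and proteins that bind DISC1 or act with it. Of these, 2 had a joined model, or 8.33%, beside 12.4% over all gene names with a multi-exon reference transcript. These were DICER1, the enzyme that cuts small RNA precursors, with 4 joined models, and TRAK1, an adaptor of mitochondrial transport, with 2. TSN, which encodes translin, was among the 24 and had 0. The 12.4% takes in names whose locus had 1 reference transcript, and such loci had 0 joined models. Most of the partners had more than 1 reference transcript. The 2 shares are therefore not like for like, and the partner count is no result about the partners.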

How the data were processed

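The 6 libraries, 3 per group, were grouped by their titles. Libraries were prepared with SMART-Seq v4 from 10 ng of RNA and Nextera XT, per the labels' protocols. The submitters' processing notes list TopHat2, Cufflinks and hg19 and give no version. The deposited file is 1 merged transcript assembly of 555595 exon lines, 0 of them with a score. Its values are exon positions in bases, counted from 1, with text tags, per the file's own lines. It holds no level per library, so the planned expression comparison could not be run.

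Models were rebuilt in Python 3.11.15 with numpy 2.4.6 and pysam 0.24.0, and drawn with matplotlib 3.10.9. Reference transcripts were exact matches named by a RefSeq accession, and joined models were those of class j. Longest frames from ATG to stop were read on the spliced GRCh37 sequence. Junction windows hold 15 bases a side. Chains were compared with GENCODE release 44 lifted to GRCh37, intron by intron. Functions for the longest frame, for passes between chains and for a chain lying inside another were tested on simulated cases. Those that counted runs and stretches were not tested in this way. By the rule for named genes, all models of the members were described, with listed neighbours and partners. The members and lists were chosen with earlier results of these data known. No significance test was run.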

Additional observations from a re-analysis of the deposited data

How the results depend on the processing

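The count of 23 joined models was the same by a direct comparison of intron chains, over all models of the locus and with a minimum of 500 spliced bases, and it was 20 without chains that lie inside 1 reference chain. The count of 21 joining both genes was the same under both stricter definitions of a shared exon. Joined models built of annotated introns fell from 23 to 8 when only introns of TSNAX-DISC1 references counted. Early stops numbered 3 in the longest frame, 4 at any distance from the last junction, and 22 in the frame of either the first ATG or the TSNAX start codon. Longest frames shorter than that of the nearest reference numbered 18, also against the reference sharing the most introns, and 23 against the longest at the locus. Joined chains in GENCODE numbered 0, or 3 where they lay inside a longer chain. The 180 possible chains became 143 with passes at an identical intron, 242 at overlapping exons and 443 with up to 2 passes. The rank by joined models was 4 by gene name, 1 on chromosomes 1 to 22, X and Y, 1 by locus, 1 by locus on those chromosomes and 106 per reference transcript. The frame from the TSNAX start codon, the exclusion of contained chains, overlapping exons and the rank by locus on those chromosomes were chosen after seeing the data. No paired analysis was possible because the assembly gives no value per library. For the same reason the planned pseudocount, filter, replicate block and leave-one-out alternatives of the expression comparison were not run, and how depth limits the models is unknown.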
